A study of Mus musculus with 40 samples.

Results

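Gene expression in 2 forebrain regions, the amygdala and the striatum, was compared across all annotated genes on 16 of the 40 microarrays of a mouse study. The arrays were chosen by the region in their title, 8 for the amygdala and 8 for the striatum, and each region held 4 arrays of each of 2 genotypes. The mice carried either alanine (Ala92D2HY in the labels) or threonine (Thr92D2HY) at residue 92 of the type 2 deiodinase, the enzyme that makes the active thyroid hormone T3 in the brain and is encoded by Dio2. All 4 groups were Mus musculus on a background strain spelled C56BL/6 in the labels, were 8 to 10 weeks old, and were kept at room temperature on a chow diet. RNA was hybridised after Trizol extraction of total RNA. No label says which animal gave the RNA of which array. The p-values therefore describe only how far these arrays spread, and that spread may be technical. Arrays are named here by region, genotype and the number in their label, such as amygdala Ala 1 or striatum Thr 37.

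The striatum is the main input nucleus of the basal ganglia. Most of its neurons are GABAergic spiny projection neurons, which receive dopamine from the midbrain and glutamate from the cortex and thalamus and which form a direct pathway marked by the D1 dopamine receptor and an indirect pathway marked by the D2 receptor. The amygdala, which processes threat, reward and social signals, joins nuclei of pallial origin, built from glutamatergic neurons like those of the cortex, with central and medial nuclei made largely of GABAergic and peptide-releasing neurons. The comparison therefore asked which genes set a mostly subpallial tissue apart from a mixed one, with both genotypes in the same model.

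Levels are log2 signals, so a difference of 1 is a 2-fold difference, and every difference is amygdala minus striatum, given ± its standard error from limma. Negative values are higher levels in the striatum. A gene was called when its Benjamini-Hochberg adjusted p from limma over all 14157 genes tested was under 0.05 and its difference was at least 1 in size. Negative control probes had array medians of 5.82 to 6.02, and levels at or below that range were close to array background. Array medians ran from 6.16 to 6.29, and each array correlated with the others of its region at 0.970 to 0.987 on average.

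Markers of each label, chosen with earlier results of these data known, were compared between the regions. All 8 striatal markers measured were higher in the striatum, and all 8 markers of the basolateral and cortical amygdala were higher in the amygdala. Of 5 measured markers of the central and medial amygdala, 2 were higher in the amygdala and 3 were not called. All 5 had an amygdala mean above the negative controls, and 1 had a striatum mean above them. Markers of other tissue did not divide evenly: 4 of 5 choroid plexus markers and 3 of 3 liver markers were higher in the striatum. Of the liver markers, 1 had an amygdala mean and 2 a striatum mean above the negative controls. In the striatum 1 of 4 thalamic markers was higher. Hypothalamic markers were called for 0 of 3, and 0 had a mean above the negative controls in either region.

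Some arrays stood apart inside their region. Amygdala Ala 1 was the highest amygdala array for 16 of 17 spiny neuron genes, and its mean over those genes was 12.24 against 10.26 to 10.82 on the other 7. Striatum arrays differed in cortical-type glutamatergic genes, with means over 12 such genes from 7.67 on Ala 34 to 10.47 on Thr 39. Amygdala Ala 2 and striatum Ala 36 had the most choroid plexus signal of their regions, at 7.60 and 9.69 over 13 genes. The 4 striatum Thr arrays carried more signal of liver genes than the 4 striatum Ala arrays, at 9.89 to 11.92 against 7.98 to 8.55 over 12 genes. These values are given again beside the genes they touch, and their part in those results was not tested except where a value without the array is given.

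The 2 regions differed at 1769 genes, 12.5% of those tested. Of these, 891 (6.29%) were higher in the amygdala and 878 (6.2%) were higher in the striatum, and the median difference over all tested genes was -0.01. Without the size criterion 4817 genes (34%) passed the adjusted p. Only 2 genes of that size missed the adjusted p: Igf2, an insulin-like growth factor, at 1.01 ± 0.58 (1.45 and called without amygdala Thr 5), and Npas4, an activity-induced transcription factor, at -1.06 ± 0.48 (-1.31 and called without striatum Ala 34, -1.41 and called without striatum Thr 38), both named after their values were seen. The 8 arrays of each region did not overlap for 1763 genes (12.5%), and 1331 of the called genes were among them. Differences of at least 4 were found for 25 genes higher in the amygdala and 45 higher in the striatum. For 684 genes higher in the amygdala and 683 higher in the striatum, the mean of the lower region was still above the negative controls. For 91 called genes neither region's mean was above them.

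**Figure D1:**
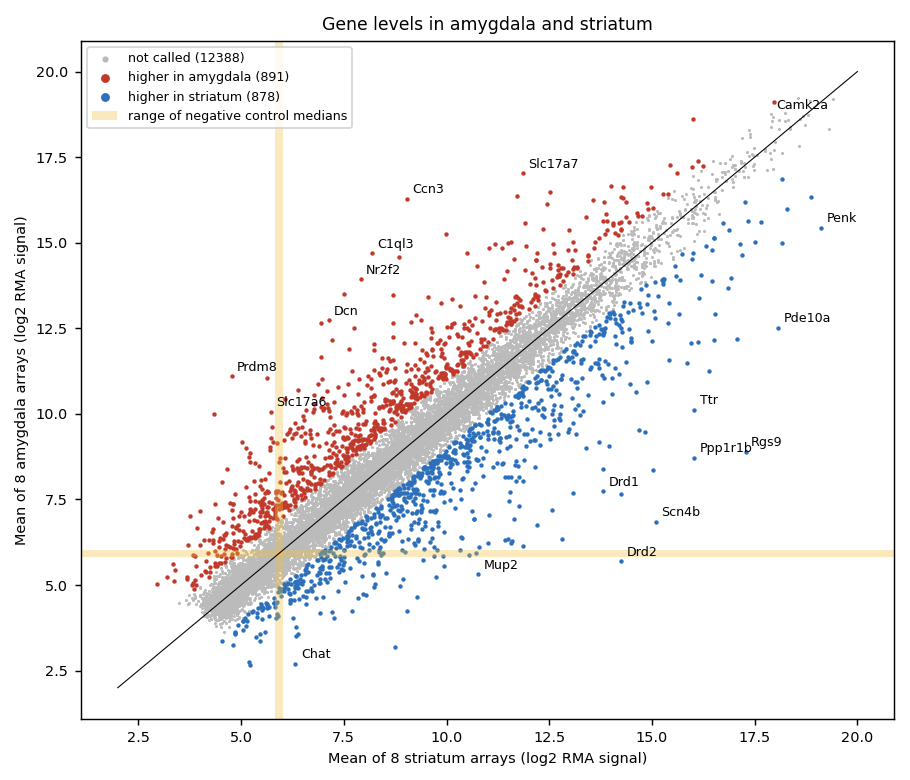
Mean log2 signal of each of 14157 genes over the 8 striatum arrays (x axis) and the 8 amygdala arrays (y axis), with 891 genes called higher in the amygdala in red and 878 called higher in the striatum in blue. The shaded bands are the range of negative control medians (5.82 to 6.02), and Drd2 lies at 5.70 in the amygdala and 14.25 in the striatum.

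The genes furthest toward the striatum were those of spiny neurons. All 17 measured genes that both spiny neuron types share were higher in the striatum, with a median difference of -4.88. In bulk tissue, fewer cells of a type and less RNA per cell cannot be told apart. Drd2, the D2 dopamine receptor, ranged from 4.18 to 9.97 in the amygdala with a median of 4.91 and from 13.66 to 14.93 in the striatum with a median of 14.20. The regions did not overlap, and the highest amygdala value was that of Ala 1, above the next at 6.66. The difference was -8.55 ± 0.59 (adjusted p = 3.67e-10), and -9.25 ± 0.24 without that array.

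Ppp1r1b encodes DARPP-32, the phosphatase inhibitor through which dopamine acts on kinase signalling. It ran from 7.09 to 11.54 (median 8.29) in the amygdala and from 15.08 to 16.57 (median 16.17) in the striatum, a difference of -7.31 ± 0.43 (adjusted p = 4.34e-11). Rgs9, which speeds the shut-off of G proteins in spiny neurons, ran from 7.09 to 12.86 (median 8.58) and from 16.93 to 17.95 (median 17.26), a difference of -8.39 ± 0.51. Scn4b, a sodium channel beta subunit, differed by -8.25 ± 0.42 and Rasd2, a small GTPase of the striatum, by -6.66 ± 0.39. In all 4 genes every striatum array exceeded every amygdala array, and amygdala Ala 1 was the highest of its region. Syndig1l, a synaptic membrane protein, followed at -6.49 ± 0.35. Without amygdala Ala 1 the 17 shared genes still numbered 17 higher in the striatum, with a median difference of -5.15.

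**Figure D2:**
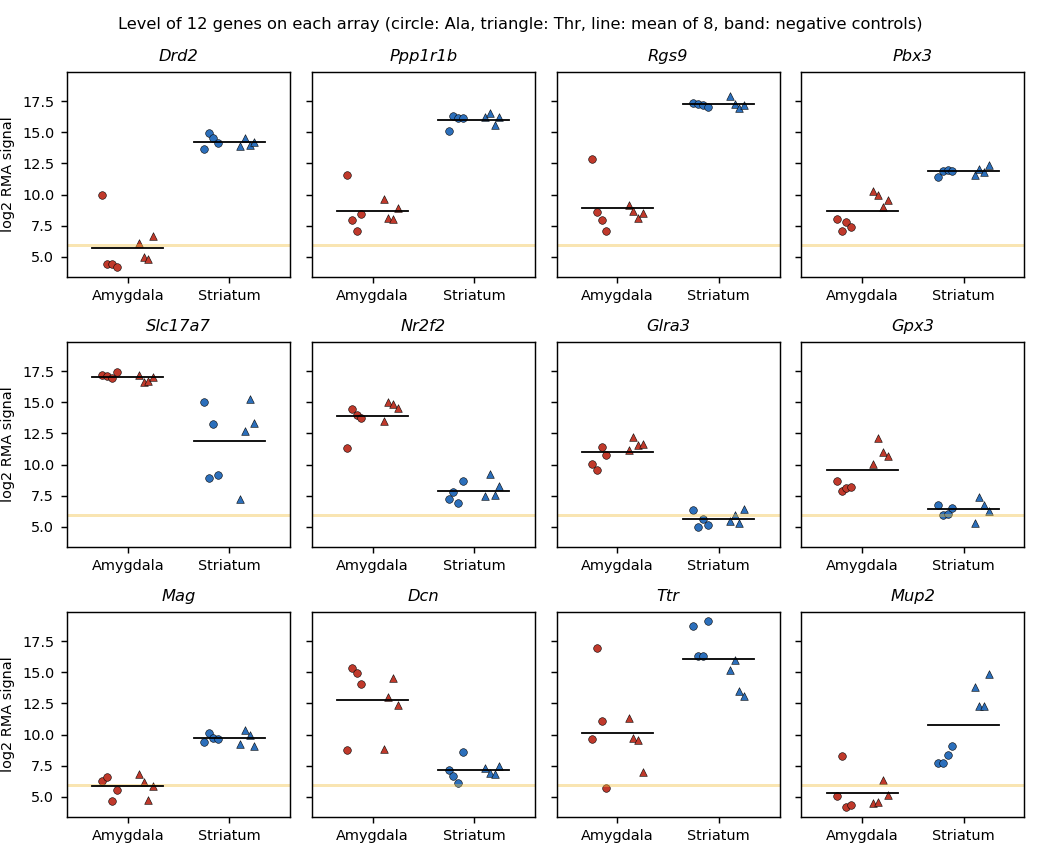
Log2 signal of 12 genes on each of the 16 arrays, with circles for Ala, triangles for Thr, a line at the mean of the 8 arrays of a region and a band at the negative control medians (5.82 to 6.02). Drd2, Ppp1r1b and Rgs9 separate the regions on all arrays with amygdala Ala 1 highest among the amygdala arrays, while Slc17a7 spreads from 7.20 to 15.28 in the striatum and Mup2 splits the striatum arrays by genotype.

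Genes of both output pathways were higher in the striatum. Of 9 measured direct pathway genes, 7 were higher in the striatum and 0 in the amygdala (median difference -3.29). Drd1, the D1 receptor, ran from 6.05 to 9.80 (median 7.57) in the amygdala and from 12.31 to 14.46 (median 13.99) in the striatum, a difference of -6.06 ± 0.39. Tac1, the precursor of substance P, differed by -4.34 ± 0.33, and Pdyn, the dynorphin precursor, by -3.94 ± 0.37. Chrm4, the M4 muscarinic receptor that opposes D1 signalling, differed by -3.27 ± 0.21, and the transcription factor Isl1 by -3.29 ± 0.29. Ebf1, a transcription factor of direct pathway neurons, was also higher in the striatum. The uncalled pair was Eya1 at 0.75 ± 0.21 and Sfxn1 at 0.19 ± 0.18.

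Of 8 measured indirect pathway genes, 4 were higher in the striatum and 0 in the amygdala (median difference -2.28). Besides Drd2 these were Gpr6 (-5.72 ± 0.24) and Gpr52 (-3.95 ± 0.21), both receptors that raise cyclic AMP, and Penk, the enkephalin precursor. Penk ran from 13.42 to 18.01 (median 15.28) in the amygdala and from 18.86 to 19.28 (median 19.13) in the striatum, a difference of -3.67 ± 0.41. Its amygdala levels were thus high in absolute signal and spread widely, with amygdala Ala 1 again the highest. Ptprm, Upb1 and Ttc12 were at -0.69 to -0.82 and were not called.

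Genes of dopamine signalling, a list that holds the receptors themselves, lay mostly on the striatal side. Of 21 measured dopamine signalling genes, 17 were higher in the striatum and 0 in the amygdala (median difference -3.95, and -4.04 without amygdala Ala 1). Adcy5, the adenylyl cyclase of spiny neurons, differed by -5.14 ± 0.24, Gnal, the stimulatory G protein coupled to D1 receptors, by -3.60 ± 0.21, and Gng7, the gamma subunit that pairs with it, by -5.13 ± 0.30. Th, tyrosine hydroxylase, the first enzyme of dopamine synthesis, ran from 4.49 to 5.82 in the amygdala and from 6.40 to 7.60 in the striatum, a difference of -2.01 ± 0.21 (adjusted p = 1.11e-07), with the amygdala below the negative controls. Drd3 and Drd5, the D3 and D5 receptors, were at -0.82 ± 0.18 and -0.25 ± 0.21 with striatum means no higher than the negative controls, and neither was called.

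The families of second messenger genes held members called in each direction. Of 7 adenylyl cyclases, 4 were higher in the amygdala and 1, Adcy5, in the striatum. Adcy8, a calcium-stimulated cyclase, differed by 3.43 ± 0.25 and Adcy6 by 1.62 ± 0.21. Of 18 phosphodiesterases, which break down cyclic nucleotides, 7 were higher in the striatum and 3 in the amygdala: Pde10a (-5.55 ± 0.29), Pde7b (-5.37 ± 0.41), Pde1b (-4.88 ± 0.25) and Pde8a (-2.19 ± 0.20) lay on the striatal side and Pde1a (3.79 ± 0.39) on the amygdalar side. Of 19 RGS genes, which limit G protein signals, 5 were higher in the striatum, among them Rgs2 (-3.08 ± 0.29), Rgs8 (-2.82 ± 0.24) and Rgs4 (-2.58 ± 0.17), and 2 in the amygdala. Of 28 G protein subunits 5 were higher on each side. Gnas, the stimulatory G protein found in most cells, was higher in the amygdala by 2.02 ± 0.15 and Gng2 by 3.77 ± 0.28, opposite to Gnal and Gng7, while Gnb5, the beta subunit that partners Rgs9, was higher in the striatum (-2.03 ± 0.14).

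**Figure D3:**
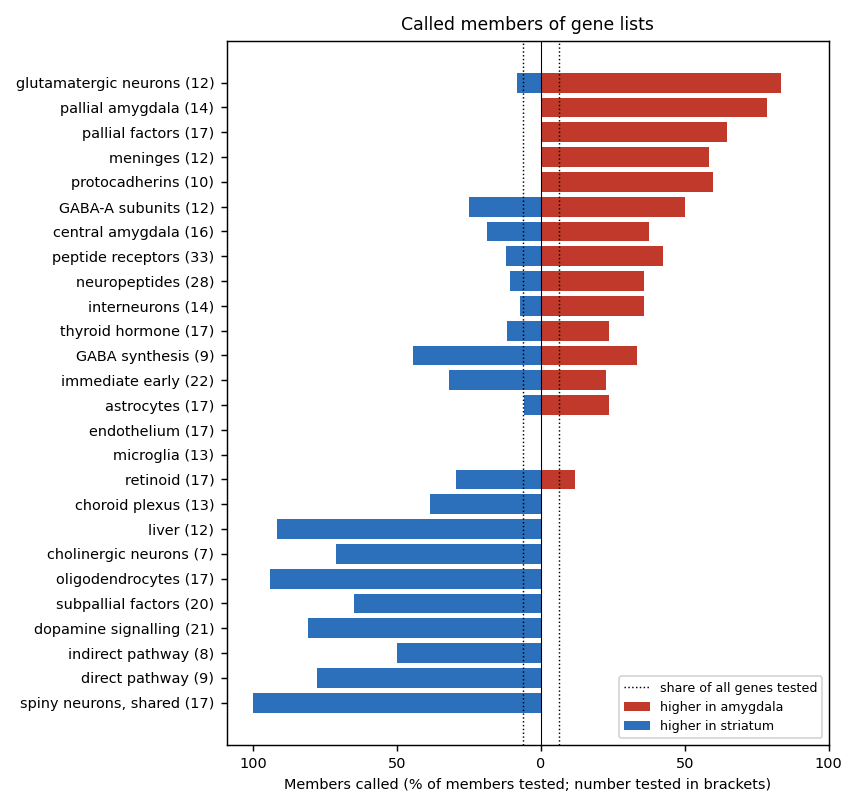
Share of the measured members of 26 gene lists called higher in the amygdala (red, right) and higher in the striatum (blue, left), in percent, with the number of members tested in brackets and dotted lines at the shares over all genes (6.29% and 6.2%). All 17 shared spiny neuron genes lie on the striatal side, 10 of 12 glutamatergic genes lie on the amygdalar side, and microglia and endothelium have 0 called members.

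Most glutamatergic neuron genes lay on the amygdalar side. Of 12 measured, 10 were higher in the amygdala and 1 in the striatum (median difference 3.27). Slc17a7, the vesicular glutamate transporter of cortical-type neurons, ran from 16.61 to 17.41 (median 17.06) in the amygdala and from 7.20 to 15.28 (median 12.98) in the striatum. The regions did not overlap, but the striatum arrays spread by over 8 log2 units, with Thr 37 at 7.20, Ala 34 at 8.96 and Ala 36 at 9.13 at the low end and Ala 33 at 15.00 and Thr 39 at 15.28 at the high end. The difference was 5.17 ± 0.89 (adjusted p = 8.64e-05), and 6.27 ± 0.75 without striatum Ala 33 and Thr 39.

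Slc17a6, the glutamate transporter of subcortical and some amygdalar neurons, ran from 8.13 to 11.47 (median 10.13) in the amygdala and from 4.51 to 6.63 (median 5.86) in the striatum, a difference of 4.35 ± 0.32. Here the striatum stayed near background on all 8 arrays. Slc30a3, the transporter that loads zinc into synaptic vesicles, differed by 6.00 ± 0.44, Nrn1, an activity-regulated growth factor, by 5.74 ± 0.53, and Neurod2 and Fezf2, transcription factors of pallial neurons, by 2.79 ± 0.25 and 3.44 ± 0.31. Nrn1 repeated the striatal spread of Slc17a7, from 6.68 to 11.43, with Ala 33 and Thr 39 highest. The exception on the striatal side was Slc17a8, the glutamate transporter of striatal cholinergic interneurons, at -1.81 ± 0.22, with a striatum mean (5.91 ± 0.66, SD, n = 8) inside the range of the negative controls. Camk2a, a kinase of excitatory and spiny neurons alike, was at 0.86 ± 0.10 and was not called.

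Genes of the pallial amygdala were higher in the amygdala for 11 of 14 measured, with 0 higher in the striatum (median difference 2.11). Nr2f2, a nuclear receptor of caudal forebrain identity, ran from 11.30 to 15.07 (median 14.24) in the amygdala and from 6.94 to 9.26 (median 7.70) in the striatum, a difference of 6.01 ± 0.39 (adjusted p = 1.57e-10). The lowest amygdala value was that of Ala 1, the array highest in spiny neuron genes, and the difference without it was 6.36 ± 0.29. Trhr, the receptor of thyrotropin-releasing hormone, ran from 7.64 to 11.66 and from 3.42 to 4.98, a difference of 5.67 ± 0.43 against a striatum below the negative controls. Lypd1 (3.44 ± 0.19), Etv1 (2.21 ± 0.21), the Wnt enhancer Rspo2 (2.72 ± 0.29) and Cdh4, an adhesion molecule (1.96 ± 0.19), were also higher. Lmo3, Thbs2 and Fign were not called, at 0.53, 0.47 and 0.13.

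Most listed transcription factors of the pallium and of the subpallium were called, in opposite directions, while 6 pallial and 7 subpallial factors were not called. Of 17 measured factors of the pallium, 11 were higher in the amygdala and 0 in the striatum (median difference 2.06). Nr2f1 (3.05 ± 0.22), Lhx2 (2.25 ± 0.31), Zbtb18 (2.03 ± 0.15) and Mef2c (1.97 ± 0.31) were among them. The striatal mean of the pallial list ran from 8.06 on Ala 36 to 9.36 on Thr 39, the striatum array highest in glutamatergic genes. Of 20 factors of the subpallium, 13 were higher in the striatum and 0 in the amygdala (median difference -1.84). Rarb, a retinoic acid receptor, ran from 7.01 to 10.08 (median 7.41) in the amygdala and from 13.61 to 14.50 (median 14.33) in the striatum, a difference of -6.56 ± 0.31. Foxp1 (-4.34 ± 0.30), Foxp2 (-3.72 ± 0.37), Meis2 (-2.95 ± 0.20) and Bcl11b (-2.94 ± 0.15), all factors of spiny neurons, and Dlx5 and Dlx6 (-2.48 ± 0.26 and -3.17 ± 0.25), which specify GABAergic neurons, followed. Of 13 LIM homeobox and LIM-only genes, 2 were higher in the amygdala, Lhx2 and Lhx9 (2.06 ± 0.33), and 4 in the striatum. Of 7 factors of the hypothalamic border, Barhl2 (2.00 ± 0.19) was higher in the amygdala and Lhx8 (-1.49 ± 0.21), a factor of cholinergic neurons, in the striatum. Barhl2 was below the negative controls on all 8 striatum arrays.

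The furthest gene on the amygdalar side was Ccn3, a secreted matricellular protein, which ran from 14.90 to 17.40 (median 16.35) in the amygdala and from 7.18 to 12.16 (median 8.88) in the striatum, a difference of 7.26 ± 0.59 (adjusted p = 3.59e-09). C1ql3, a secreted synaptic organiser, followed at 6.52 ± 0.49 and Prdm8, a transcriptional repressor, at 6.33 ± 0.32. Both lacked overlap between the regions. Syt17, a synaptotagmin, differed by 5.70 ± 0.38 and Tafa1, a secreted neural cytokine-like protein, by 5.28 ± 0.29. Among the genes with the smallest p-values and both regions above background were Sidt1 (4.35 ± 0.20), Camk2d (3.69 ± 0.18) and Sphkap (3.55 ± 0.17), which anchors protein kinase A, on the amygdalar side. On the striatal side they were Actn2, a postsynaptic actin crosslinker (-4.53 ± 0.17), Kcnab1, a potassium channel beta subunit (-4.02 ± 0.17), Strn, striatin, a calmodulin-binding scaffold (-3.58 ± 0.16), and St8sia3, a sialyltransferase (-3.18 ± 0.13). Their adjusted p-values ran from 2.52e-13 for Actn2 to 2.51e-12 for Camk2d. Serpina9, a protease inhibitor, differed by -5.54 ± 0.21, with an amygdala mean of 3.20 far below the negative controls.

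Genes listed for claustrum and piriform cortex, which border both dissections, were higher in the amygdala for 4 of 9 and in the striatum for 1. Besides Ccn3 and Gng2 they included Nr4a2, a nuclear receptor of claustral neurons, which ran from 5.74 to 12.16 in the striatum and from 10.93 to 14.85 in the amygdala and overlapped (3.53 ± 0.82). It was not called with Thr arrays alone (2.10) or with the choroid plexus covariate (2.86). Its striatal order followed Slc17a7 at the ends: Ala 34, Ala 36 and Thr 37 were lowest, at 5.74, 6.16 and 6.62, and Thr 39, Thr 40 and Ala 33 were highest, at 12.16, 11.96 and 11.88. Of 13 neocortical genes 5 were higher in the amygdala and 3, including Tle4 (-2.35), in the striatum. Of 12 thalamic genes 3 were higher in the amygdala and 2 in the striatum. Of 9 hypothalamic genes 2 were higher in the amygdala and 0 in the striatum. Of 4 olfactory bulb genes 1 was called on each side, and of 6 pallidal and septal genes 1 was higher in the amygdala and 2 in the striatum. Of 9 hippocampal genes 4 were higher in the amygdala and 1 in the striatum. Amygdala Ala 2 stood above the other amygdala arrays on that list, at 9.99 against 8.46 to 8.80. Without that array 3 were higher in the amygdala.

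Genes that handle or sense GABA did not follow one direction. Of 9 genes of GABA synthesis, transport and metabotropic reception, 4 were higher in the striatum and 3 in the amygdala. Gad1, one of the GABA-making enzymes, ran from 10.98 to 11.97 (median 11.70) in the amygdala and from 13.03 to 13.56 (median 13.24) in the striatum, a difference of -1.70 ± 0.15. Slc32a1, the vesicular GABA transporter, differed by -2.20 ± 0.17 and Gad2 by -1.36 ± 0.20. Amygdala levels of Gad1 stayed far above the negative controls, unlike those of Drd2. Gabbr2, a subunit of the GABA-B receptor, was higher in the amygdala by 2.69 ± 0.21, as were Slc6a13 (1.70 ± 0.35) and Slc6a11 (1.13 ± 0.17), transporters that take up GABA outside synapses.

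Of 7 measured cholinergic genes, 5 were higher in the striatum, where large cholinergic interneurons reside, and 0 in the amygdala (median difference -2.43). Chat, which makes acetylcholine, ran from 2.34 to 3.43 (median 2.67) in the amygdala and from 5.03 to 7.45 (median 6.51) in the striatum, a difference of -3.62 ± 0.26 (adjusted p = 8.07e-10). Slc5a7, the choline transporter, differed by -4.63 ± 0.33. Of 14 interneuron genes, 5 were higher in the amygdala and 1 in the striatum. Calb2, the calcium buffer calretinin, ran from 9.38 to 11.52 (median 10.93) in the amygdala and from 5.68 to 7.34 (median 6.39) in the striatum, a difference of 4.30 ± 0.29. Vip, a peptide of disinhibitory interneurons, differed by 3.75 ± 0.37, Crhbp by 2.60 ± 0.20, Htr3a, the serotonin-gated channel, by 2.42 ± 0.19 and Nos1 by 1.65 ± 0.27. Pvalb, the parvalbumin of fast-spiking interneurons, was higher in the striatum by 1.20 log2 units (difference -1.20 ± 0.32, adjusted p = 0.00547) with overlapping arrays. With Ala arrays alone Pvalb was at -0.41 and was not called, nor was it with the choroid plexus covariate (-1.06). Sst, somatostatin, was high in both regions, at 17.03 to 17.78 and 16.25 to 17.26, and its difference of 0.53 ± 0.15 was not called.

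Neuropeptide genes were called in both directions. Of 28 measured, 10 were higher in the amygdala and 3, Tac1, Pdyn and Penk, in the striatum (median difference 0.56). Grp, gastrin-releasing peptide, ran from 6.06 to 10.09 (median 7.12) against 3.90 to 4.69 (median 4.44), a difference of 3.00 ± 0.29, with amygdala Ala 2 highest. Tac2, the neurokinin B precursor, differed by 1.91 ± 0.23, Chgb, a granin of secretory granules, by 1.66 ± 0.19 and Cartpt, the CART peptide precursor, by 1.59 ± 0.17. Of 33 peptide receptors, 14 were higher in the amygdala and 4 in the striatum (median difference 0.91). Oxtr, the oxytocin receptor, ran from 7.31 to 9.91 (median 8.98) in the amygdala and from 4.67 to 5.96 (median 5.23) in the striatum, a difference of 3.66 ± 0.30. Npy2r and Npy1r, receptors of neuropeptide Y, differed by 3.20 ± 0.31 and 1.99 ± 0.22, Sstr3 by 1.95 ± 0.22 and Oprl1, the nociceptin receptor, by 1.93 ± 0.16. The striatal side held Tacr1, the substance P receptor (-2.62 ± 0.24), Oprk1, the dynorphin receptor (-2.54 ± 0.34), and Trhr2 (-1.85 ± 0.20), the second receptor of thyrotropin-releasing hormone and opposite in direction to Trhr.

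Peptide genes and Dio2 are classic carriers of the cyclic AMP response element, whose full form reads TGACGTCA on either strand. That motif was looked for in the 250 bases before the gene start in the RefSeq promoter table of GRCm38.p6. It was found for 5 of the 23 tested peptide genes with an entry (21.7%). This was against 2.74% of 11434 tested genes with an entry and 1.77% of all 27025 genes in the table. The shares were 2.44% of genes called higher in the amygdala and 2.01% of those called higher in the striatum, beside 2.74% of tested genes. The windows of the 5 peptide genes and of Dio2 are shown because they hold the motif, which is in capitals.
Cartpt (chr13:99900762-99900821, minus strand): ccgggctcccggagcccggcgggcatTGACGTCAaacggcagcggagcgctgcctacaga
Chgb (chr2:132781544-132781603, plus strand): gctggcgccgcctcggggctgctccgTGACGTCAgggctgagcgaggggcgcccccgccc
Ucn (chr5:31138906-31138965, minus strand): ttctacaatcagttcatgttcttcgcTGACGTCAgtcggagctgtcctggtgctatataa
Sst (chr16:23890859-23890918, minus strand): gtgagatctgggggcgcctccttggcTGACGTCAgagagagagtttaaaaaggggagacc
Scg2 (chr1:79440061-79440120, minus strand): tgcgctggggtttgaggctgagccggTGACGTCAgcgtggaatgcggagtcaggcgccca
Dio2 (chr12:90739100-90739159, minus strand): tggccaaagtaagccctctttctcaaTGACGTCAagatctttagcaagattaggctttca
Of these, Cartpt and Chgb were called higher in the amygdala, while Ucn (0.81 ± 0.15), Sst (0.53 ± 0.15), Scg2 (-0.49 ± 0.16, chosen here for its motif) and Dio2 (-0.60 ± 0.18) were not called. Scg2 was at -1.17 and called with Ala arrays alone, and Ucn was at 1.06 and called with the choroid plexus covariate. A match is a description of these letters and not a measured binding site.

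Receptor subunits for the fast transmitters were called in both directions. Of 12 GABA-A subunits, 6 were higher in the amygdala and 3 in the striatum. Gabra3 ran from 12.26 to 13.45 (median 12.87) in the amygdala and from 8.04 to 10.00 (median 9.39) in the striatum, a difference of 3.62 ± 0.24, and Gabra5 differed by 2.87 ± 0.26. Gabrd, the subunit of extrasynaptic receptors, was higher in the striatum (-2.40 ± 0.29), with Gabrg3 (-1.76 ± 0.26) and Gabra4 (-1.43 ± 0.17), which assembles with it. Of 4 glycine receptor subunits, Glra3 and Glra2 were higher in the amygdala and 0 in the striatum. Glra3 ran from 9.56 to 12.20 (median 11.27) against 4.99 to 6.40 (median 5.54), a difference of 5.40 ± 0.26 (adjusted p = 2.49e-12), and Glra2 differed by 2.18 ± 0.24. Glrb, the shared beta subunit, was high in both regions and was not called (0.34 ± 0.16).

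Of 16 ionotropic glutamate receptor subunits, 3 were higher in the amygdala, among them the NMDA subunit Grin3a (3.43 ± 0.21) and the kainate subunit Grik1 (3.25 ± 0.22), and 1, the kainate subunit Grik2 (-1.23 ± 0.12), in the striatum. Of 6 metabotropic receptors, Grm2 was higher in the amygdala (3.36 ± 0.29) and 3 were higher in the striatum, among them Grm4 (-2.58 ± 0.24) and Grm3 (-1.83 ± 0.22). Among 17 other monoamine receptors 4 were called in each direction. Htr1b and Htr1d, serotonin receptors that sit on the axons of spiny and other projection neurons, were higher in the striatum by large amounts (-4.40 ± 0.21 and -4.38 ± 0.29). Htr1a (1.49 ± 0.18), Htr7 (1.52 ± 0.19) and Htr2c (1.23 ± 0.26) were higher in the amygdala, and for Htr7 and Htr2c amygdala Ala 1 was the lowest array of its region. Htr2c was at 0.38 and not called with Ala arrays alone, and at 2.08 and called with Thr arrays alone. Of 11 acetylcholine receptors, Chrm4 was higher in the striatum and Chrm5 in the amygdala (2.17 ± 0.44), 18.2% of the list beside 12.5% of all genes.

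Of 70 potassium channel genes, 19 were higher in the amygdala and 15 in the striatum, with a median difference of 0.00. On the striatal side stood genes of the transient A-type current, Kcna4 (-3.09 ± 0.15), Kcnd2 (-2.22 ± 0.18) and its partner Kcnip2 (-2.26 ± 0.17), and Kcnk2, a leak channel (-2.90 ± 0.20). On the amygdalar side stood Kcnj16, an inward rectifier (3.58 ± 0.19), Kcnc4 (3.30 ± 0.25) and Kcnc2 (2.75 ± 0.19), channels of fast repolarisation. Kcna4 ran from 8.74 to 10.06 in the amygdala and from 12.17 to 12.78 in the striatum. Of 34 sodium and calcium channel genes, 9 were higher in the striatum, among them Scn4b, Cacna2d3 (-3.43 ± 0.24) and Cacng4 (-2.79 ± 0.22), and 3 in the amygdala: Scn7a (2.72 ± 0.27), the T-type channel Cacna1g (1.95 ± 0.21) and Cacna2d1 (1.69 ± 0.16). Of 15 synaptotagmins, 4 were higher in the amygdala, led by Syt17 and Syt13 (2.66 ± 0.21), and 3 in the striatum, led by Syt6 (-5.45 ± 0.29).

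Adhesion and guidance genes direct how neurons sort and wire. Of 10 protocadherins measured outside the clustered loci, 6 were higher in the amygdala and 0 in the striatum (median difference 1.24). Pcdh19 ran from 9.86 to 11.28 (median 10.53) against 5.90 to 7.31 (median 6.80), a difference of 3.76 ± 0.21, and Pcdh8 differed by 3.39 ± 0.22. Of 18 cadherins 3 were higher in the amygdala, among them Cdh2, N-cadherin (1.65 ± 0.16), and 1, Cdh8, in the striatum (-2.27 ± 0.15). Of 28 semaphorin, plexin and neuropilin genes, 6 were higher in the amygdala, among them Nrp2 (3.87 ± 0.34), Plxna1 (2.56 ± 0.21) and Plxnc1 (2.33 ± 0.15), and 5 in the striatum, among them Sema7a (-2.17 ± 0.22). Of 19 ephrins and Eph receptors 3 were called on each side, with Epha5 (2.33 ± 0.25) and Ephb1 (-3.18 ± 0.26) in front. Of 16 genes of slit and netrin signalling, 4 were higher in the amygdala, among them the netrin receptor Unc5d (4.71 ± 0.29), Slit1 (3.52 ± 0.35) and Ntng1 (2.76 ± 0.39), and 1, the netrin receptor Dcc, in the striatum (-1.90 ± 0.17). Of 28 Wnt pathway ligands, receptors and enhancers, 3 were higher in the amygdala, Rspo3 (3.54 ± 0.32), Rspo2 and Fzd1 (1.85 ± 0.18), and 1, Wnt2 (-1.32 ± 0.25), in the striatum, where its mean was below the negative controls. These were 14.3% of the list, near the 12.5% called among all genes.

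Nuclear hormone pathways held members called on each side. Of 17 retinoid genes, 5 were higher in the striatum and 2 in the amygdala. Rarb and Rxrg (-5.41 ± 0.27), a receptor and its partner, led the striatal side, and Rbp4, which carries retinol, differed by -1.49 ± 0.24. Of 17 thyroid hormone genes, 4 were higher in the amygdala and 2 in the striatum. Dio2 ran from 7.91 to 9.15 (median 8.57) in the amygdala and from 8.42 to 9.50 (median 9.19) in the striatum, overlapped, and was not called (-0.60 ± 0.18, adjusted p = 0.0135). The hormone receptors Thra and Thrb were at 0.80 ± 0.17 and 0.62 ± 0.20 and were not called either. Dio3, the deiodinase that inactivates the hormone, was higher in the amygdala by 2.04 ± 0.32, with both means below the negative controls. Klf9, a T3-induced factor, was higher in the striatum (-1.49 ± 0.19). Trh, the releasing hormone itself, ran from 4.90 to 10.01 (median 9.23) in the amygdala and from 4.41 to 5.99 in the striatum, overlapped, and was higher in the amygdala by 2.60 ± 0.63 (adjusted p = 0.0027), but was not called with the choroid plexus covariate (1.90). Of 11 steroid and stress hormone genes, Crhbp was higher in the amygdala and Sgk1, a glucocorticoid-induced kinase, in the striatum (-1.91 ± 0.18). These were 18.2% of the list, beside 12.5% of all genes.

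Of 9 neurotrophin and neurotrophic receptor genes, 2 were higher in the amygdala and 0 in the striatum. Bdnf, which cortical and amygdalar neurons supply to the striatum by axonal transport, ran from 8.73 to 9.71 (median 9.13) in the amygdala and from 3.74 to 6.75 (median 4.77) in the striatum, a difference of 4.15 ± 0.40. Gfra2, a receptor for neurturin, differed by 2.54 ± 0.43. Of 22 immediate early genes, induced by neuronal activity, 7 were higher in the striatum and 5 in the amygdala. Within Ala the counts were 3 and 5, and within Thr 8 and 3. Homer1 (-1.42 ± 0.15), Egr3 (-1.50 ± 0.21), Egr1 (-1.89 ± 0.38) and Arc (-1.70 ± 0.36) lay on the striatal side, and Ptgs2 (2.31 ± 0.32), Nr4a3 (1.96 ± 0.43) and Jun (1.76 ± 0.20) on the amygdalar side. Egr1 and Arc were not called with Ala arrays alone, at -1.67 and -1.30, and Nr4a3 was not called with Thr arrays alone, at 1.23. The mean of the list differed between striatum arrays, from 7.70 on Ala 34 to 9.54 on Ala 33, and the part of that spread in these calls was not tested.

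Oligodendrocyte genes were higher in the striatum, which is crossed by bundles of myelinated axons, for 16 of 17 measured, with 0 higher in the amygdala (median difference -3.17). Mag, a myelin adhesion protein, ran from 4.64 to 6.82 (median 6.04) in the amygdala and from 9.06 to 10.33 (median 9.65) in the striatum, a difference of -3.84 ± 0.29 (adjusted p = 1.52e-09). Cldn11 (-3.73 ± 0.30), Opalin (-3.70 ± 0.31) and Cnp (-3.47 ± 0.31), further myelin proteins, and Myrf (-2.73 ± 0.23), the factor that starts the myelin programme, moved alike. The list mean ran from 8.03 to 9.99 in the amygdala and from 11.70 to 12.54 in the striatum. Olig2, which marks the whole lineage, was the uncalled member (-0.63 ± 0.26). Of 7 genes of oligodendrocyte precursors, C1ql1 was higher in the amygdala (1.18 ± 0.19) and 0 in the striatum. This was 14.3% of the list, near the 12.5% called among all genes.

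Of 17 astrocyte genes, 4 were higher in the amygdala, among them the water channel Aqp4 (1.31 ± 0.15), Gjb6 (1.23 ± 0.20) and Gfap (1.25 ± 0.36), and 1, Unc13c (-2.24 ± 0.27), in the striatum. None of 13 microglial genes and none of 17 endothelial genes was called, in a fit that called 12.5% of all genes. Microglia gained 1 call in the striatum without amygdala Ala 1, striatum Ala 33 or striatum Thr 39, and endothelium had 1 within each genotype. Their smallest p-values still passed without the size criterion: Trem2 (-0.89 ± 0.15) and Csf1r (-0.85 ± 0.17) of microglia and Ly6c1 (-0.91 ± 0.15) and Slc2a1 (-0.80 ± 0.16) of endothelium. Of 27 collagens 1 was called, Col6a4 in the striatum (-1.12 ± 0.20). It ran from 4.35 to 5.66 in the amygdala, below the negative controls, and from 4.91 to 6.48 in the striatum, around them. Of 57 ribosomal protein genes 1 was called on each side.

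**Figure D4:**
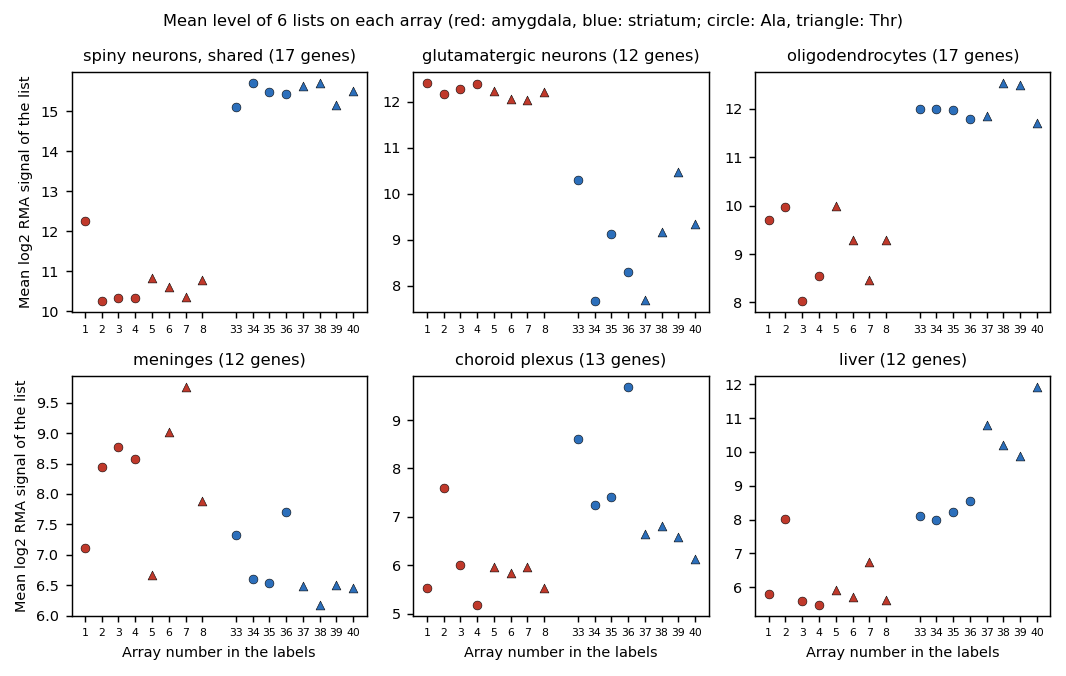
Mean log2 signal of 6 gene lists on each of the 16 arrays, by array number in the labels, with amygdala in red, striatum in blue, circles for Ala and triangles for Thr. Amygdala Ala 1 stands at 12.24 on the spiny neuron list, striatum arrays run from 7.67 to 10.47 on the glutamatergic list, and the 4 striatum Thr arrays lie at 9.89 to 11.92 on the liver list.

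Genes of meninges and choroid plexus also differed between the regions. Of 12 meningeal genes, 7 were higher in the amygdala and 0 in the striatum (median difference 1.55). Within Ala 3 were higher in the amygdala (median difference 1.02), and within Thr 8 were (1.84). The list mean ran from 6.67 to 9.76 in the amygdala and from 6.18 to 7.71 in the striatum, with overlap. Dcn, decorin, a matrix protein of meningeal fibroblasts, ran from 8.79 to 15.38 (median 13.52) in the amygdala and from 6.11 to 8.60 (median 7.02) in the striatum, a difference of 5.61 ± 0.78. Amygdala Ala 1 and Thr 5 were at 8.79 and 8.87, just above the highest striatum array. Of 13 choroid plexus and ependymal genes, 5 were higher in the striatum and 0 in the amygdala. The count was 9 within Ala (median difference -1.63) and 2 within Thr (-0.55), and the list mean ran from 7.24 to 9.69 on striatum Ala arrays and from 6.13 to 6.82 on striatum Thr arrays, without overlap. Ttr, transthyretin, which carries thyroxine in the cerebrospinal fluid, ran from 5.70 to 16.93 (median 9.69) in the amygdala and from 13.07 to 19.11 (median 16.16) in the striatum, overlapped, and differed by -5.91 ± 1.04 (adjusted p = 0.000114). The highest amygdala value was that of Ala 2, and without it the difference was -6.92 ± 0.73. With the mean of the choroid plexus list, of which Ttr is a member, as a covariate it was -1.91 and was not called. Clic6, a channel protein of the same epithelium, differed by -2.51 ± 0.37.

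Genes of liver and plasma proteins were higher in the striatum for 11 of 12 measured (median difference -3.81). One of the 11 is Ttr, which is also on the choroid plexus list. Trf, transferrin, which oligodendrocytes also make, ran from 10.54 to 13.39 in the amygdala and from 15.69 to 16.31 in the striatum (-3.86 ± 0.32). Alb, serum albumin, differed by -3.75 ± 0.50, and the major urinary protein genes Mup2, Mup9, Mup19 and Mup22, which are near-identical copies whose probes may share signal, by -4.66 to -5.46. Mup2 ran from 4.14 to 8.26 (median 4.83) in the amygdala and from 7.68 to 14.84 (median 10.67) in the striatum. Its striatum arrays split by genotype, with Ala at 7.68 to 9.06 and Thr at 12.28 to 14.84. Of the 12 liver genes, 6 were higher in the striatum within Ala (median -2.01) and 12 within Thr (median -4.50).

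The region comparison was also made inside each genotype. Within Ala arrays 1859 genes were called and within Thr arrays 1788, of which 1405 were called in both. Of the 1859 called within Ala, 1851 had the same sign within Thr. The test of the interaction of region and genotype called 0 genes (0%), with limma and Benjamini-Hochberg adjustment, while 518 passed at an unadjusted p under 0.05. The 5 smallest p belonged to Mup9, Mup22, Mup2, Barhl2 and Pbx3, each with an adjusted p of 0.106.

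Pbx3, a homeobox cofactor expressed in the striatum and central amygdala, was 11.79 ± 0.27 in striatum Ala and 11.96 ± 0.34 in striatum Thr (SD, n = 4), but 7.58 ± 0.41 in amygdala Ala and 9.73 ± 0.56 in amygdala Thr. Its region difference was -4.21 ± 0.27 within Ala and -2.23 ± 0.27 within Thr. Barhl2 differed by 1.02 ± 0.26 within Ala and 2.99 ± 0.26 within Thr. Its levels were at or below the negative controls in the striatum (3.67 to 4.90) and on amygdala Ala arrays (4.79 to 5.85). Only amygdala Thr arrays, at 6.93 to 7.50, were above them, so its folds are uncertain. The same amygdala arrays differed in genes of the central amygdala, 6 of 16 of which were higher in the amygdala and 3 in the striatum. Gpx3, a secreted glutathione peroxidase, led that list and ran from 7.87 to 8.66 on amygdala Ala arrays and from 10.07 to 12.12 on amygdala Thr arrays, above 5.34 to 7.43 in the striatum. Its region difference was 3.20 ± 0.28 over both genotypes, 1.89 ± 0.39 within Ala and 4.51 ± 0.39 within Thr, and the interaction was not called (adjusted p = 0.227). The mean of the 16 central amygdala genes, Gpx3 among them, was 7.51 to 7.70 on amygdala Ala arrays and 8.07 to 8.75 on amygdala Thr arrays. The list was chosen with earlier results of these data known, so its mean is not separate support. Means of some lists of neighbouring tissue were also lower on the amygdala Ala arrays, and others were not. Hippocampal (9.03 on Ala and 8.61 on Thr), neocortical (9.63 and 9.57) and claustrum and piriform (10.98 and 10.93) means were higher on Ala. The pallidal and septal mean was lower (6.97 and 7.12). The thalamic mean ran from 8.50 to 8.64 on Ala and from 8.71 to 9.10 on Thr. The mean of hypothalamic border factors ran from 5.49 to 5.66 on Ala and from 5.72 to 6.03 on Thr, near background. Barhl2, named above for its interaction p, is among those factors, so their mean is not separate from it. The hypothalamic mean was 5.28 ± 0.20 on amygdala Ala and 5.86 ± 0.29 on amygdala Thr (SD, n = 4), with overlap and near background. Gabrq and Cartpt, both called over the 2 genotypes, were at 0.81 ± 0.32 and 0.86 ± 0.25 within Ala and at 3.01 ± 0.32 and 2.31 ± 0.25 within Thr, and neither reached the size of 1 within Ala. Whether genotype or the part of the amygdala dissected goes with these values was not tested.

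**Figure D5:**
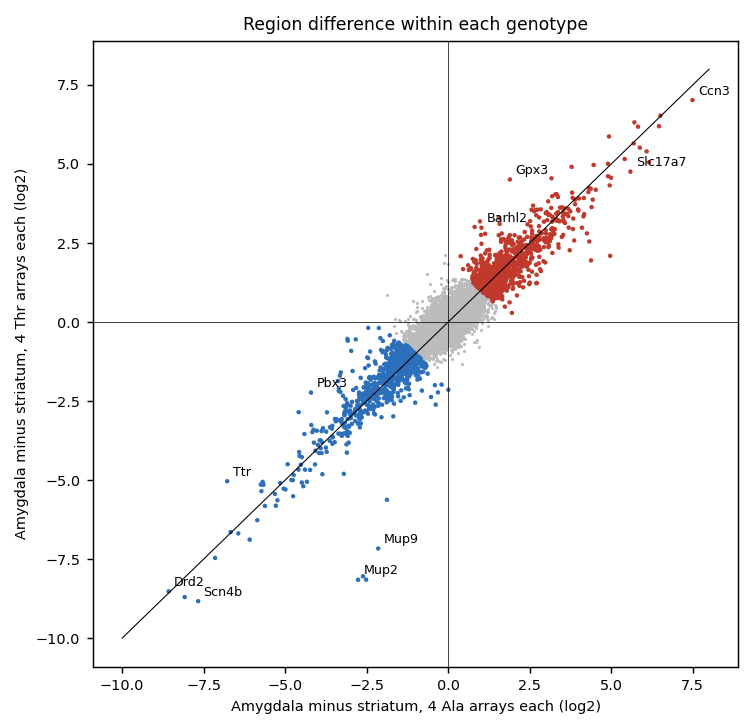
Amygdala minus striatum difference (log2) of each of 14157 genes within the Ala arrays (x axis) and within the Thr arrays (y axis), 4 arrays per region and genotype, with called genes in red (higher in the amygdala) and blue (higher in the striatum). Most called genes lie along the line of equal differences, and Mup2 and Mup9 lie below it at -8.15 and -7.17 within Thr against -2.77 and -2.15 within Ala.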

How the data were processed

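Total RNA was hybridised as biotinylated cDNA on Affymetrix arrays, per the labels' protocols. The values are log2 intensities deposited by the authors and come from RMA, which the submitters' processing notes name without a version. RMA subtracts background, equalises the distribution of signal between arrays and summarises probes. Values of dim genes reached far below the negative control medians, as for Chat at 2.34 on amygdala Thr 7, so their folds are uncertain. Of 28846 rows, 6640 were control rows and 2634 had no gene name. The row with the highest mean was kept for 55 genes with several rows. Of 19505 genes, 14157 exceeded the 30th percentile of all values (4.617) on at least 4 of the 16 arrays and were tested. No 2 arrays held identical values. The number of arrays limits the precision.

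A model with 4 group means (region and genotype) was fitted with limma 3.58.1 (lmFit, eBayes with a trend) in R 4.3.3, with the data.table package (1.17.8). The region contrast averaged both genotypes, and p-values were Benjamini-Hochberg adjusted over all genes tested. The scripts were tested on simulated data. Counts for a gene list cover its tested members, and other members were not analysed here. Array means of a list are means of log2 signals. The members of the comparison, the 57 gene lists and the tests were chosen with earlier results of these data known. Genes were named by rule: the 12 furthest in each direction, the 8 members with the smallest p and 3 uncalled members of each list, the 6 smallest p in each direction above background, the 5 smallest interaction p, and a set of standard markers. Alternatives covered the samples and terms of the model, scaling, filters, thresholds, the spread estimate and leaving out arrays. Gene coordinates are given only for promoter sequences, because the table names no genome build.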

Additional observations from a re-analysis of the deposited data

Results flagged for a closer look

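Among 426 sets of 8 arrays (the named genes in each region), 43 had 1 array whose gap to the nearest other was too large a part of the range by Dixon's test at the 95% level, as had 4 of 18 sets of list means. Chance gives about 1 in 20.

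Amygdala Ala 1 accounted for 26 of the 43. It was the highest amygdala array for Drd2 (9.97), Rgs9 (12.86), Scn4b (10.00), Rasd2 (11.11), Syndig1l (8.34), Rarb (10.08), Adcy5 (11.03), Gng7 (12.91), Gpr6 (7.18), Pde10a (14.61), Pde1b (13.96), Rgs4 (15.15) and Kcnab1 (13.21), and for the mean of the shared spiny neuron genes (12.24). It was also the highest for Slc5a7 (6.78), Sema7a (10.16), Grm3 (13.83), Klf9 (13.32), Rbp4 (9.10), Tle4 (12.97) and Arc (8.87). It was the lowest for Nr2f2 (11.30), Nrp2 (6.59), Lmo3 (15.21), Htr2c (10.69), Htr7 (5.08) and Grik1 (8.30). The first 20 of these genes had negative region differences, that is, higher striatum levels.

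Amygdala Ala 2 stood apart for Etv1 (13.89) and Grp (10.09) on the high side and Mef2c (14.26) on the low side, and for the hippocampal (9.99) and choroid plexus (7.60) list means. Amygdala Thr 5 was low for Prdm8 (9.63), Thr 6 high for Tac2 (8.45) and Thr 7 low for Ttc12 (4.91). Striatum Ala 36 was high for Clic6 (12.23) and low for Drd1 (12.31), Gng7 (14.73) and Rgs4 (16.07). Striatum Thr 37 was low for Dio2 (8.42), Gad2 (13.07), Kcnj16 (6.12), Slc2a1 (12.78) and the hippocampal list mean (7.11), and high for Rgs9 (17.95). Striatum Ala 33 was low for Pde10a (17.30) and Thr 40 for Thbs2 (3.75).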

How the results depend on the processing

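The count of 1769 called genes moved with the threshold. It was 4817 (2415 higher in the amygdala and 2402 in the striatum) with no minimum difference, 554 (265 and 289) with a minimum of 2, and 795 (385 and 410) with limma's treat against 1. Leaving out 1 array at a time gave 1737 to 1855 called genes, 869 to 943 higher in the amygdala and 831 to 922 higher in the striatum. The other settings of samples, scaling, filter and spread kept each count within 1.5 times. The interaction of region and genotype called 4 genes with all 40 arrays in the fit (Mup2, Mup22, Mup9 and Mup19) and 3 when the choroid plexus list mean entered as a covariate. Leaving out 1 array gave 0 to 3, with 3 without amygdala Ala 2 and 2 (Mup9 and Pbx3) without amygdala Thr 7, and the cause was not tested. Without striatum Ala 33 and Thr 39, an alternative chosen after seeing the data, 1892 genes were called. The 213 named genes included some that were not called and so had no call to lose. Of the 213, 50 lost their call under at least 1 alternative, 46 with the minimum of 2, 28 with treat and 16 under the other settings. When 1 array was left out 0 lost it, and 0 reversed after being called. The 16 were Arc, C1ql1, Cartpt, Egr1, Gabrq, Htr2c, Pvalb and Rbp4 with Ala arrays alone, Col6a4, Gad2, Gfap, Gjb6, Nr4a2 and Nr4a3 with Thr arrays alone, and Trh and Ttr with the choroid plexus covariate, which also ended the calls of C1ql1, Nr4a2 and Pvalb. Besides Igf2 and Npas4, uncalled genes also gained calls outside the threshold settings. These were Scg2 (-1.17) and Slc2a1 (-1.13) with Ala arrays alone, and Lmo3 (1.06), Ly6c1 (-1.03) and Ttc12 (-1.01) with Thr arrays alone. With the choroid plexus covariate they were Thra (1.01), Trem2 (-1.05) and Ucn (1.06). Drd3, Eya1, Ly6c1 and Trem2 gained a call without amygdala Ala 1, amygdala Ala 2 and striatum Ala 36 together. Apart from thresholds, 38 of 114 list counts (57 lists in each direction) moved by over 1.5 times, 9 of them when 1 array was left out. Among these, amygdalar Wnt genes went from 3 to 5 without striatum Thr 37 or Thr 39, amygdalar RGS genes from 2 to 4 without amygdala Ala 2 or striatum Thr 38, amygdalar retinoid genes from 2 to 1 without amygdala Thr 5 or Thr 6, striatal slit and netrin genes from 1 to 2 without striatum Ala 36, and striatal interneuron genes from 1 to 2 without amygdala Ala 1. The striatal hippocampal call was lost without amygdala Ala 1, 3 or 4 or striatum Thr 38. Amygdalar collagens went from 0 to 1 without amygdala Ala 1, Ala 2 or Thr 6 or striatum Thr 37 or Thr 38, and striatal ribosomal genes ran from 0 to 2. No paired analysis was possible because the label numbers are unique to each array and the groups share none. Levels near the negative controls limit folds of dim genes.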
